A study of Mus musculus with 3 samples.

Results

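Ncr1, Fcgr3, Tyrobp, Hcst, Fcer1g and Cd247 encode 2 activating receptors of natural killer (NK) cells and the 4 small membrane adaptors through which such receptors signal. They were taken by symbol, 6 of 22350 protein-coding genes in a GENCODE annotation of the mouse genome build mm9, and every listed Runx3 or H3K4me1 region that touched the gene body or the 20 kb on either side of it was assigned to the gene. This stretch is called the window of the gene. Chromatin of freshly isolated, resting splenic NK cells from ICR mice was immunoprecipitated using a polyclonal antibody against the transcription factor Runx3, a monoclonal one against H3K4me1 (monomethyl lysine 4 of histone H3), or rabbit non-immune serum (NIS) as the control, 1 sample each. The cells came from negative selection and a sort, which was for NKp46 per the labels and for DX5 per the study's methods. NKp46 is the product of Ncr1, so by the labels the cells were picked on the protein of a gene described here.

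Runx3 is a RUNX family factor that binds DNA through the conserved Runt domain and is prominent in cytotoxic lymphocytes. H3K4me1 marks enhancers and the flanks of active promoters, and where a regulatory element is occupied the nucleosomes at its core are often displaced. NKp46 (Ncr1) and the low-affinity IgG receptor CD16 (Fcgr3), which triggers antibody-dependent killing, have no activation motif of their own. Both pair with the Fc receptor γ chain (Fcer1g), and NKp46 also with CD3ζ (Cd247). The immunoreceptor tyrosine-based activation motifs of these adaptors recruit the kinases Syk and Zap70. DAP12 (Tyrobp) does the same for activating Ly49 receptors, and DAP10 (Hcst) couples NKG2D to phosphoinositide 3-kinase.

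The deposited data are region coordinates alone, so each statement is about whether and where a region was listed. The read depth behind a region cannot be read from coordinates, 1 list per antibody was used, and the values carry no replicate error and no test. A region is a chromatin feature and no measure of expression. Runx3 regions are called peaks. The cell type label was checked against markers: the windows of 8 of 8 NK markers held a Runx3 peak (median 6 peaks), and 7 of 8 had one at a start, beside 51% and 28.2% of all protein-coding genes. The windows of the NK markers Klrd1 and Klrk1 overlap, so the 8 are not 8 separate stretches. For 4 markers each of T cells, B cells, myeloid cells and other lineages, 2, 3, 3 and 2 windows held a peak, with medians of 0.5 to 1.5 peaks. These 10 of 16 windows (62.5%) were not fewer than the 51% of all genes, whereas 1 of the 16 genes, Itgax, had a peak at a start. The highest counts among the 16 were those of the myeloid gene Itgax with 5 peaks and the B cell gene Cd79a with 3, and Cd4, Cd8a, Ms4a1, Lyz2, Alb and Neurod1 had none.

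The main transcript start of each of the 6 genes, that of the transcript numbered first in the annotation, lay inside a Runx3 peak. For 5 of the genes, the 200 bases directly upstream of these starts are shown here because they are the promoter sequence under those peaks. They were read from the reference build mm9 and are written 5′ to 3′ in the direction of transcription. The sequence of the ICR mice was not read and may differ, here and in the motif counts below. Capitals mark the RUNX consensus, searched as TGTGGT and as its forms TGTGGC, then TGCGGT, then TGCGGC, on both strands, so that ACCACA is TGTGGT on the opposite strand.
Ncr1 upstream (chr7:4289126-4289325, plus strand): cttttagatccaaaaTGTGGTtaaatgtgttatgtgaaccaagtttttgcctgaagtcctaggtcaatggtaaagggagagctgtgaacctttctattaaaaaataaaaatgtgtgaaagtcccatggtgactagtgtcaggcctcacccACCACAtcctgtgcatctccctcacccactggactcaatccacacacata
Fcgr3 upstream (chr1:172989535-172989734, minus strand): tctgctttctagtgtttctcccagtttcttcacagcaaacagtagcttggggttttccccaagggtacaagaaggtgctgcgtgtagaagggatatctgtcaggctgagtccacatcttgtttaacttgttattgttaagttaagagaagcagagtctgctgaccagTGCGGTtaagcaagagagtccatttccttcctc
Hcst upstream (chr7:31204874-31205073, minus strand): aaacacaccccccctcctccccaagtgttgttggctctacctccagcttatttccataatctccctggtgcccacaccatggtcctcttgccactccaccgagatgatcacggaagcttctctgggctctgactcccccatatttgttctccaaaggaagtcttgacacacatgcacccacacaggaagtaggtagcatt
Fcer1g upstream (chr1:173164497-173164696, minus strand): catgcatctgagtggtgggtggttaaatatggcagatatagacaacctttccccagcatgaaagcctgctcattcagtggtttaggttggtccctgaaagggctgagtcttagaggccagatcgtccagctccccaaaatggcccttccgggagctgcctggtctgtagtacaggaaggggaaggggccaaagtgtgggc
Cd247 upstream (chr1:167718612-167718811, plus strand): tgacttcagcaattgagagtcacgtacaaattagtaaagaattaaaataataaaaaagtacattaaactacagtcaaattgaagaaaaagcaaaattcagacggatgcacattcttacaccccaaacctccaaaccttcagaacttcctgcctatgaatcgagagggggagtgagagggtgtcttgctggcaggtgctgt

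Of the 5 upstream stretches, 2 held a RUNX match. Of all 22350 protein-coding genes, 31.8% had a match in the 200 bases upstream of the outermost 5′ end. The stretches shown were read at the main start, which for Fcgr3 is not the outermost 5′ end. Both background shares in this paragraph use the outermost 5′ end. Ncr1 had 2 matches, both TGTGGT, whose first bases as printed lay 185 and 50 bp upstream of the start. They point in opposite directions. Fcgr3 had 1 TGCGGT, with its first base 33 bp upstream. The upstream stretches of Hcst, Fcer1g and Cd247 had no match to these letters. The ETS family consensus, searched as AGGAAGT and CGGAAGT on both strands, was found in 2 of the 5 stretches, which were those of Hcst (2 matches) and Cd247 (1), against 11.1% of all genes. Hcst and Cd247 thus had ETS letters without RUNX letters, Ncr1 and Fcgr3 the reverse and Fcer1g neither. A match is a run of letters and was not tested as a binding site.

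Peaks away from the starts are shown for 4 of the genes. Among the peaks that were nearest to a start of the gene and touched none of its starts, the one with the most RUNX matches per kb was taken. A stretch of 150 bases that held as many matches as any other in that peak is printed. Where stretches tied, as in Cd247, the one with its matches most central was taken. Capitals again mark RUNX matches, and each stretch is written in the direction of the named gene.
Fcgr3 intron peak (chr1:172991828-172991977, minus strand): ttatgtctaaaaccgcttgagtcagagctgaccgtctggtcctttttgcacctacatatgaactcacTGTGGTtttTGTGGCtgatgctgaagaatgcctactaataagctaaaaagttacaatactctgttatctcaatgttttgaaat
Tyrobp upstream peak (chr7:31196246-31196395, plus strand): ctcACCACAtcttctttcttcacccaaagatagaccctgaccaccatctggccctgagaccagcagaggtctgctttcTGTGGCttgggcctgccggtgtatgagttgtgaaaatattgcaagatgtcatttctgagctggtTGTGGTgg
Fcer1g intron peak (chr1:173162113-173162262, minus strand): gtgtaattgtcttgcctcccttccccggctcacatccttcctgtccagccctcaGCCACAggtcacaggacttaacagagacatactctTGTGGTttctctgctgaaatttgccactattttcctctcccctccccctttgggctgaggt
Cd247 intron peak (chr1:167774942-167775091, plus strand): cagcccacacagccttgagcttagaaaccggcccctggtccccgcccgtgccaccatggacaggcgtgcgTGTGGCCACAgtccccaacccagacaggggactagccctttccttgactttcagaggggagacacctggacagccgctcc

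The Tyrobp stretch held 3 matches and the other stretches 2 each. In the Cd247 stretch a TGTGGC and its reverse complement overlapped, forming the palindrome TGTGGCCACA, starting 56200 bp from the gene start. It lay towards an edge of the 1127 bp peak, with its matches centred -426.5 and -422.5 bp from the midpoint. Other matches of that peak, at -90.5 and 94.5 bp, were nearer to the midpoint. In the Fcgr3 stretch TGTGGT and TGTGGC ran in the same direction, 9 bp from first base to first base. The peaks they come from were centred 2.6 kb upstream of the Tyrobp start, 2.2 kb into Fcer1g, 56.6 kb into Cd247 and 2.4 kb upstream of the main Fcgr3 start.

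All 6 windows held Runx3 peaks, as did 51% of the windows of all protein-coding genes. All 6 also held H3K4me1 regions, against 74% of all genes. At the transcript start the background was lower: 28.2% of all genes had a peak touching the 1 kb on either side of an annotated start and 24.2% had a start inside a peak, whereas 6 of 6 did by either measure. The windows of Tyrobp and Hcst share most of their bases, so the 6 genes are not 6 independent stretches. Joined into 5 intervals of 320.7 kb, the windows held 29 distinct peaks and 39 H3K4me1 regions. The peaks were 524 to 1695 bp wide with a median of 827 bp, close to the median of 825 bp over the whole list.

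**Figure D1:**
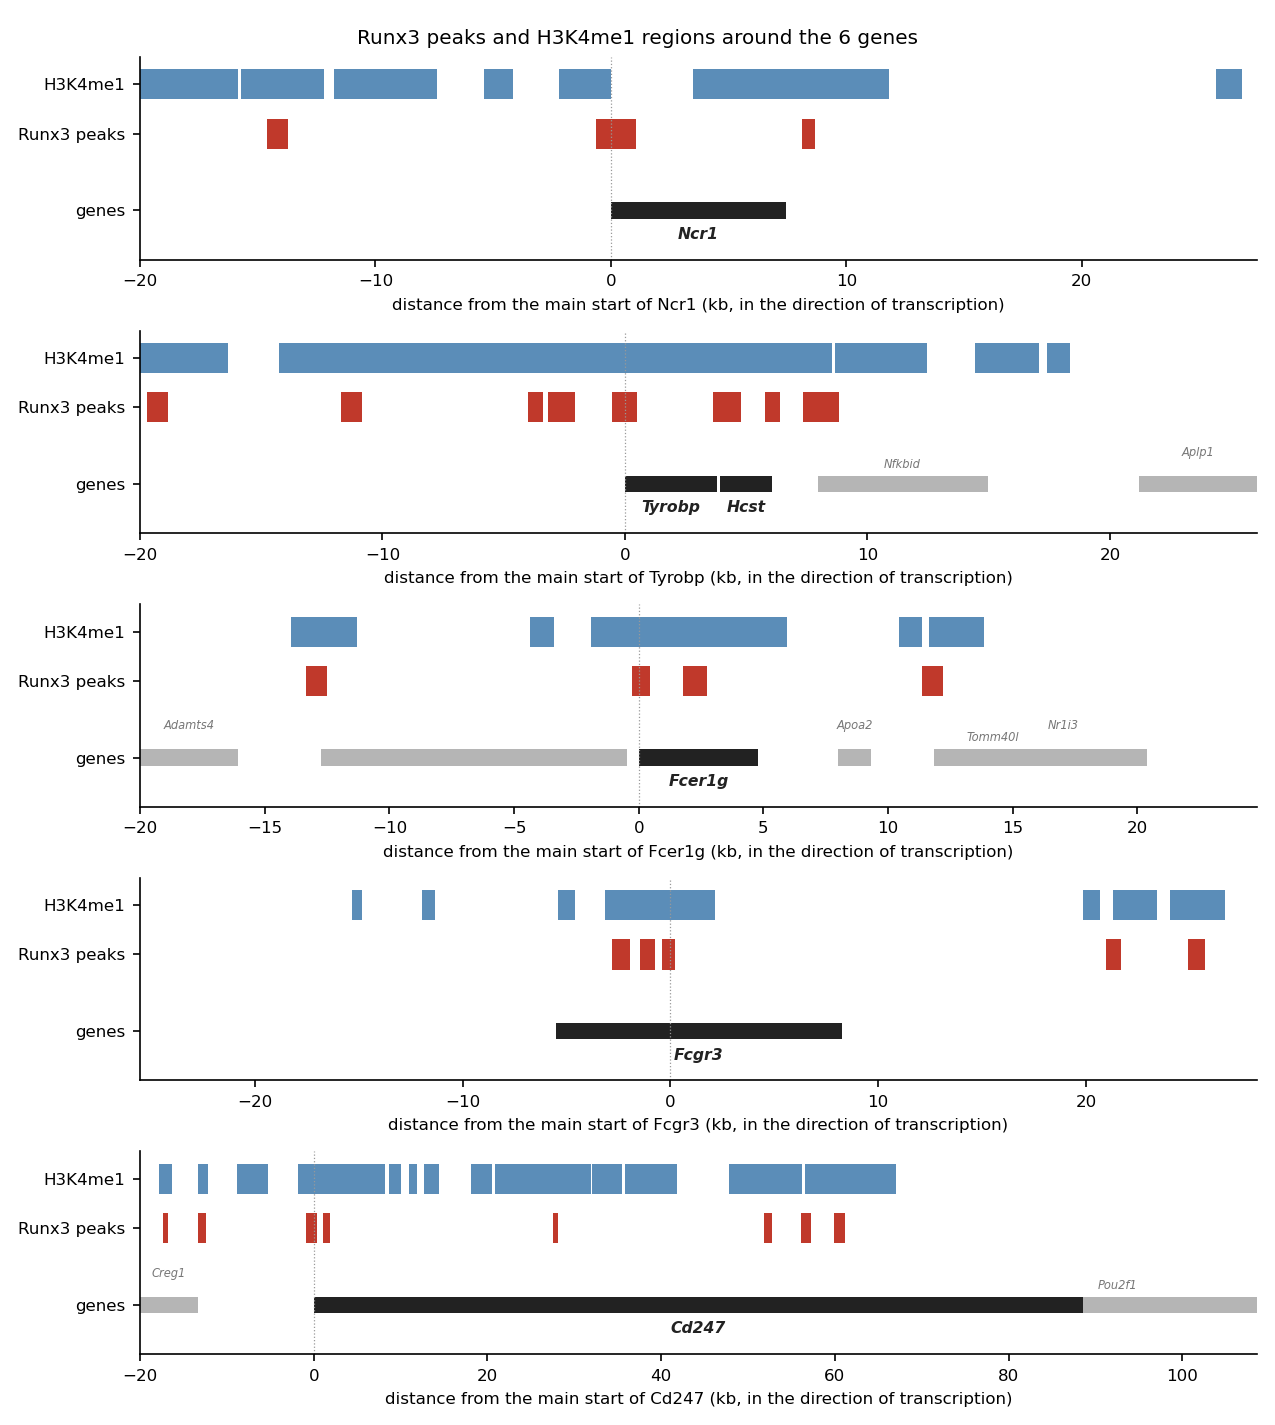
Maps of the 5 intervals, with distance from the main start of the first named gene in kb along the direction of transcription on the horizontal axis. Blue bars are H3K4me1 regions, red bars Runx3 peaks, black bars the 6 genes and grey bars other protein-coding genes, not all of them labelled. A red bar lies over each start, and 8 of the 9 peaks in the Tyrobp and Hcst interval overlap a single H3K4me1 region of 22807 bp.

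The receptor gene Ncr1 (ENSMUSG00000062524.3, chr7:4289326-4296766, plus strand) had 3 peaks and 8 H3K4me1 regions in a window of 47441 bp. Its start peak was 1695 bp wide, wider than 98.4% of all Runx3 peaks, and ran from upstream sequence over the 5′ exon into the gene. Only 38.5% of this peak lay under H3K4me1. The mark was listed from 2205 bp upstream of the start to 3 bp past it, and the next region began at chr7:4292796, so that the downstream side of the Runx3 peak lay in a gap of the mark. The midpoint of the peak, 199 bp inside the gene, was in that gap.

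Further peaks of Ncr1 lay 14.2 kb upstream of the start (chr7:4274706-4275601) and 8.4 kb downstream of it, past the gene end (chr7:4297450-4297973), and both were entirely under H3K4me1. The downstream one was 524 bp wide, wider than 4.15% of the list. H3K4me1 covered 52.8% of the Ncr1 window. From 4301155 on, a stretch of 13856 bp held neither feature. Only 77.8% of the window's 40-base stretches occur once in mm9, and 82.8% of those in the empty stretch. The authors kept uniquely aligned reads, so reads from repeated stretches were not used. The longest repeated run was 370 bp. The peaks themselves were 90.3 to 100% unique by this measure.

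The receptor gene Fcgr3 (ENSMUSG00000059498.6, chr1:172981300-172995066, minus strand) had 5 peaks and 7 H3K4me1 regions. The peak over its main start (chr1:172989303-172989943) was 641 bp wide. Peaks of 722 and 856 bp followed, centred 1.1 and 2.4 kb upstream, in an intron of a longer transcript of the gene. These 3 peaks lay entirely in a single H3K4me1 region of 5293 bp. The longer transcript starts at 172995066, which was inside neither a Runx3 peak nor an H3K4me1 region.

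The other peaks of the Fcgr3 window were intergenic, 21.3 and 25.3 kb downstream of the main start and nearer to the start of Fcgr4, another IgG receptor gene, which is expressed in myeloid cells. Between them and the start region, 17729 bp of the gene body and 3′ flank held neither feature, although 92.3% of the 40-base stretches there were unique. The Fcgr3 window was the least marked of the 6, with 23.8% of bases under H3K4me1. It also had the lowest share of unique 40-base stretches, 61.1%, and its longest repeated run was 2212 bp. The peaks in it were 81.3 to 100% unique, lowest in the intron peak whose sequence is printed. The part of the repeats in the low H3K4me1 share was not tested.

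Tyrobp (ENSMUSG00000030579.9, chr7:31198807-31202596, plus strand) and Hcst (ENSMUSG00000064109.6, chr7:31202732-31204873, minus strand) are transcribed towards each other, with 135 bp between their ends. Tyrobp had 9 peaks in its window and Hcst 8, and all 8 were among the 9. A single H3K4me1 region, chr7:31184521-31207327, covered both genes. It was 22807 bp wide, with 115 wider regions among 49902 in the list, and it overlapped 8 of the Runx3 peaks.

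In the direction of Tyrobp, peaks were centred 19.3, 11.3, 3.7 and 2.6 kb upstream of its start and over the start itself, 26 bp from its centre. The peak at 2.6 kb had 5 RUNX matches and was 1124 bp wide. At the other end, a peak of 633 bp was centred 13 bp from the Hcst start. A peak of 1152 bp (chr7:31202444-31203595) began in the 3′ exon of Tyrobp and ran over the 3′ part of Hcst. It was the only listed peak to touch both genes.

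The last peaks of this interval were at the start of Nfkbid, which encodes an atypical inhibitor of NF-κB, 1.7 and 2.4 kb upstream of Hcst. They are separated by 8 bp (31206957 to 31206966), and their midpoints lie 194 and 130 bp from different annotated starts of Nfkbid. They were counted for Tyrobp and Hcst by the window rule alone. Without flanks, Tyrobp and Hcst had 2 peaks each in the gene body. H3K4me1 covered 77.2% of the Tyrobp window and 71.6% of the Hcst window.

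Fcer1g (ENSMUSG00000058715.6, chr1:173159703-173164496, minus strand) had 4 peaks, 2 of them its own by position. The start peak (chr1:173164046-173164759) was 714 bp wide and centred 94 bp inside the gene. The intron peak (chr1:173161767-173162735) was 969 bp wide, centred 2.2 kb from the start, with 4 RUNX matches. Both were within an H3K4me1 region of 7847 bp that covered the whole gene. The other peaks were 12.9 kb upstream, nearer to the start of another gene, and 11.8 kb downstream at the start of Tomm40l, a relative of a mitochondrial import protein.

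Cd247 (ENSMUSG00000005763.8, chr1:167718812-167807407, plus strand) is the longest of the genes, and its window of 128596 bp held 8 peaks and 14 H3K4me1 regions. The start peak (chr1:167717932-167719153) was 1222 bp wide, with 4 RUNX matches, and a peak of 770 bp was centred 1.5 kb inside the gene. In the introns, 4 more peaks were centred 27.8, 52.3, 56.6 and 60.5 kb from the start. The one at 56.6 kb (chr1:167774878-167776004) held 8 RUNX matches, the most of any of the 29 peaks.

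H3K4me1 in Cd247 lay in regions of 10017 bp at the start and of 11049 and 10439 bp in the introns, each wider than at least 98.0% of the list. The peak at 27.8 kb lay in the region of 11049 bp, the peak at 60.5 kb in that of 10439 bp, and the peak at 56.6 kb bridged the gap between the latter and the region before it. The 3′ 41594 bp of the window held neither feature, although 94.4% of its 40-base stretches were unique. That stretch includes the end of Cd247 and part of the neighbouring gene Pou2f1, which encodes a POU domain factor. The upstream peaks, 17.1 and 12.9 kb from the start, were in and just past Creg1 and nearer to its start. H3K4me1 covered 48.1% of the Cd247 window.

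Per 10 kb of window, Tyrobp had 2.06 peaks and Hcst 1.90, followed by Fcgr3 with 0.930, Fcer1g with 0.893, Ncr1 with 0.632 and Cd247 with 0.622. Over all protein-coding genes the median was 0.0459 and the 90th percentile 0.468. Each of the 6 was above 94.0% of genes, and Tyrobp was above 99.98%. The values of Tyrobp and Hcst each include the other's start peak and the peaks at the start of Nfkbid. In percent of bases under H3K4me1 the order was different: Tyrobp, Hcst, Ncr1, Cd247, Fcer1g and Fcgr3, from 77.2 to 23.8%, against a median of 7.38% and a 90th percentile of 29.5%. Fcgr3 thus followed Tyrobp and Hcst by peaks and came last by the mark, where it was above 84.3% of genes. No interval can be given for these orders, as there is 1 list per antibody.

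**Figure D2:**
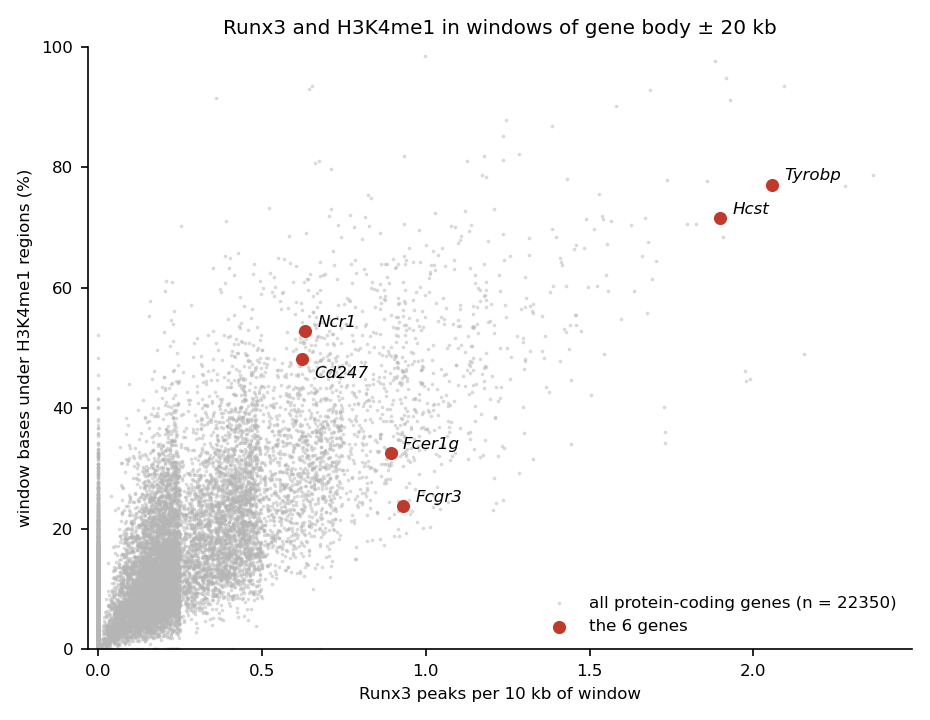
Runx3 peaks per 10 kb of window (horizontal) and percent of window bases under H3K4me1 (vertical) for 22350 protein-coding genes in grey and the 6 genes in red. Tyrobp (2.06 peaks per 10 kb, 77.2%) and Hcst lie at the upper right edge, Ncr1 and Cd247 close together near 0.63 peaks per 10 kb, and Fcgr3 lowest in H3K4me1 at 23.8%.

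Each of the 29 peaks overlapped an H3K4me1 region by 1 bp or more (100%, 95% Wilson interval 88.3 to 100%), as did 95.7% of all Runx3 peaks. The midpoint of the peak was under the mark in 27 of 29 (93.1%, interval 78.0 to 98.1%), beside 83.6% of all peaks. The interval of the 29 includes that value. The exceptions were the Ncr1 start peak and the Fcgr3 peak 21.3 kb downstream, of which 48.6% was under the mark. Conversely, 19 of the 39 H3K4me1 regions held a Runx3 peak. The share over the whole H3K4me1 list is not given here, so this count cannot be called high or low. The 5′ end of the gene lay inside an H3K4me1 region in 5 of 6 genes, all but Fcgr3, and in 34.5% of all protein-coding genes. These intervals cover counting error over peaks alone, and neighbouring peaks are not independent.

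What the start peaks of the 6 genes shared beyond the rule was a low CpG content. Across the genome, CpG-rich starts are common at broadly expressed genes and CpG-poor starts at many tissue-restricted ones. Among 6138 Runx3 peaks that touched the 1 kb around a protein-coding start, the median was 6.09 CpG dinucleotides per 100 bp (interquartile range 4.09 to 7.76). The 8 such peaks of the 6 genes had 0.624 to 2.38, with a median of 1.39.

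The Fcgr3 start peak had 0.624 CpG per 100 bp and the Ncr1 start peak 0.649. For the Hcst start peak the value was 1.11, for Tyrobp 1.35, and for the Cd247 start peak and the next peak inside that gene 1.72 and 1.43. The Fcgr3 peak 1.1 kb upstream had 2.08, and the Fcer1g start peak was highest with 2.38. All 8 were thus below the lower quartile of start peaks, and the Fcer1g peak was above 16.1% of them. The GC content of the 8 had a median of 50.2%, against 57.9%.

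In the same windows, 3 peaks at the starts of the neighbouring genes Nfkbid and Tomm40l had more CpG than each of these 8. The Nfkbid peaks had 6.97 and 4.12 CpG per 100 bp and the Tomm40l peak 2.88. They were above 64.2%, 25.2% and 18.5% of start peaks, so the Tomm40l peak was also below the lower quartile. No test was made, since the genes were chosen as a family and the peaks come from a single list.

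**Figure D3:**
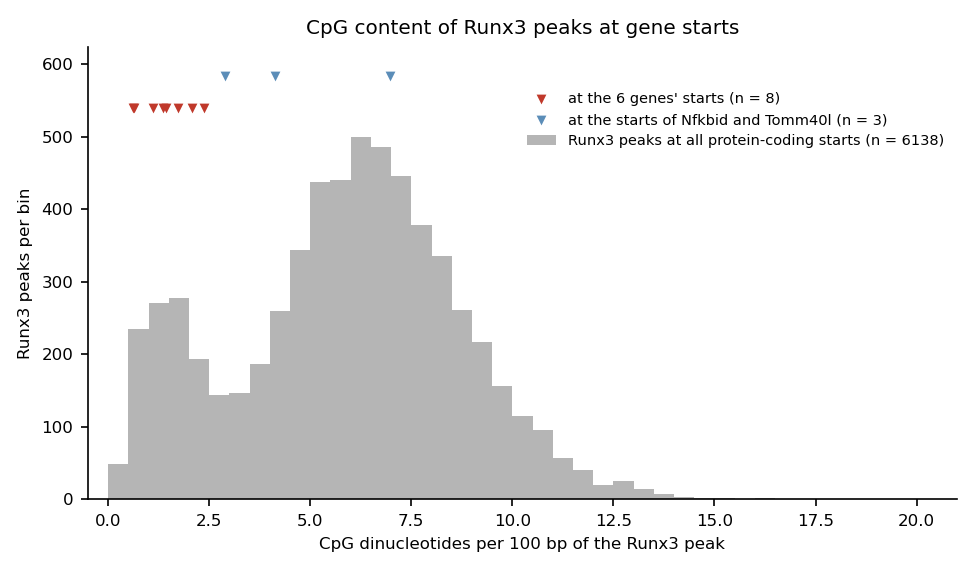
CpG dinucleotides per 100 bp of the peak (horizontal) for 6138 Runx3 peaks at protein-coding starts, as a histogram of peaks per bin in grey. Triangles give the 8 peaks at the starts of the 6 genes (red, 0.624 to 2.38) and 3 peaks at the starts of Nfkbid and Tomm40l (blue, 2.88 to 6.97), with height of no meaning. The red triangles fall in the lower of the 2 humps of the histogram.

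RUNX letters were found in each of the 29 peaks (100%, interval 88.3 to 100%), and in 93.3% of all peaks. There were 76 matches, of which 29 were TGTGGT, 26 TGTGGC, 14 TGCGGT and 7 TGCGGC, and 1 pair of matches overlapped, the palindrome in Cd247. In 3 further cases a RUNX match shared bases with an ETS, AP-1 or T-box match. Between 1 and 8 were found per peak, with at least 2 in 20 peaks. The median density of the 29 peaks was 2.60 matches per kb, and that of all peaks 2.96. In the central 200 bp of the peak 20 of 29 had a match (69.0%, interval 50.8 to 82.7%), beside 69.1% of all peaks. By variant, TGCGGT was in 37.9% of the 29 (interval 22.7 to 56.0%) and in 24.7% of all peaks, TGTGGT in 58.6 and 65.5%.

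The Ncr1 start peak held 4 RUNX matches, and the nearest was 246 bp from the midpoint. It is 1 of 9 peaks without a match in the central 200 bp. In 12 of the 29 peaks a match lay under 50 bp from the midpoint. The nearest match was 4 bp or less from the midpoint in the Fcer1g start peak and in the Fcgr3 peaks 2.4 kb upstream and 25.3 kb downstream. In the outermost Tyrobp peak the only match was 370 bp from the midpoint.

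**Figure D4:**
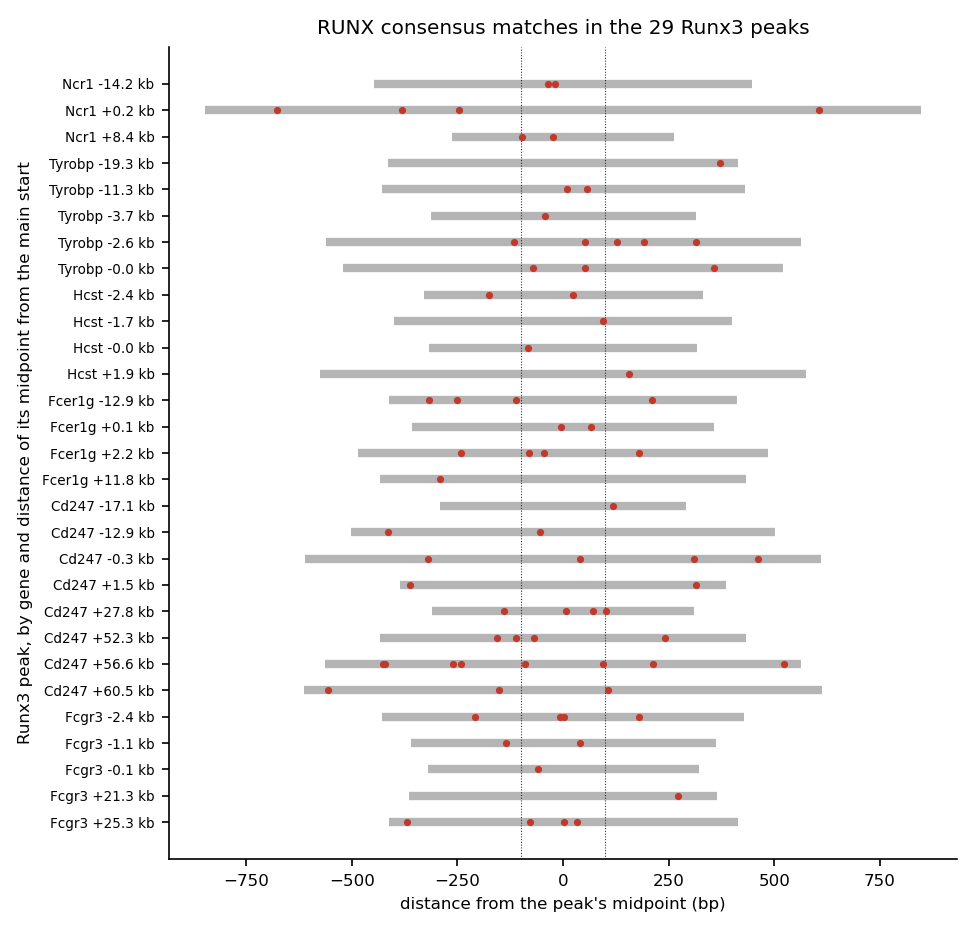
Positions of the 76 RUNX matches (red points) in the 29 Runx3 peaks (grey bars, to scale), in bp from the midpoint of each peak along the plus strand of the chromosome. Rows are labelled by gene and by the signed distance of the midpoint from its main start, and dotted lines bound the central 200 bp. In 20 of 29 rows a point falls between the lines, and the wide Ncr1 start peak has all 4 points outside them.

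For the letters of other factors, the share over the whole list lay inside the interval of the 29 peaks. The ETS letters occurred in 11 of 29 peaks (37.9%, interval 22.7 to 56.0%) and in 41.8% of all peaks. The AP-1 letters, TGACTCA and TGAGTCA, were in 5 of 29 (17.2%, interval 7.60 to 34.5%) and in 16.5% of all. The T-box letters AGGTGT, which fit T-bet and Eomes, were in 12 of 29 (41.4%, interval 25.5 to 59.3%) and in 41.3%. A RUNX and an ETS match within 50 bp of each other were in 5 of 29, or 17.2%, and in 17.3% of all peaks. The start peaks of Ncr1, Tyrobp and Cd247 were among them, with gaps of 14, 46 and 9 bp.

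The receptors and kinases that work with these 6 genes were taken from 3 lists. Of 9 lymphoid receptors that pair with the adaptors (NKG2D, Ly49, CD94 and NKR-P1 family members and CD3 chains), 9 had a Runx3 peak in the window and 4 at a start, beside 51% and 28.2% of all genes, with a median of 0.564 peaks per 10 kb and 44.7% of bases under H3K4me1. Klrb1c, which encodes NK1.1, had 12 peaks, Klrd1, which encodes CD94, had 9, and Klrk1, which encodes NKG2D, had 5. These genes were also counted among the NK markers above. Several of these receptors are neighbours in the NK gene complex and share regions. The windows of the CD3 chain genes overlap too, so the 9 genes are not 9 separate stretches.

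Of 12 receptors of myeloid cells, mast cells or platelets that use the same adaptors, 4 had a peak in the window, and 1 at a start, beside the same 51% and 28.2%. Their median was 0 peaks per 10 kb and 6.11% of bases under H3K4me1. Fcgr1, the high-affinity IgG receptor, had 5 peaks, and Oscar and Fcgr4 had 2 each. Those of Fcgr4 were also counted in the Fcgr3 window. The lists differ in size and in gene length, and no test was made between them. The adaptors are common to lymphoid and myeloid cells, and their own windows had more peaks per 10 kb (median 0.911 with the 2 receptors) than the median of either partner list.

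Of 25 genes of downstream signalling, 23 had a peak in the window and 19 at a start, beside 51% and 28.2% of all genes, with a median of 0.492 peaks per 10 kb and 36.0% of bases under H3K4me1. The Src family kinase gene Fyn had 15 peaks and the ubiquitin ligase gene Cblb 9. Both are long genes, of 196527 and 176499 bp. Per 10 kb they had 0.634 and 0.416 peaks, so that Cblb was below the median of the list. Syk and Zap70, the kinases that bind the phosphorylated adaptors, had 7 and 3 peaks, with 1 at a start in each. Among the 3 Vav exchange factors, Vav1 had 5 peaks, and Vav2 and Vav3 had none.

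**Figure D5:**
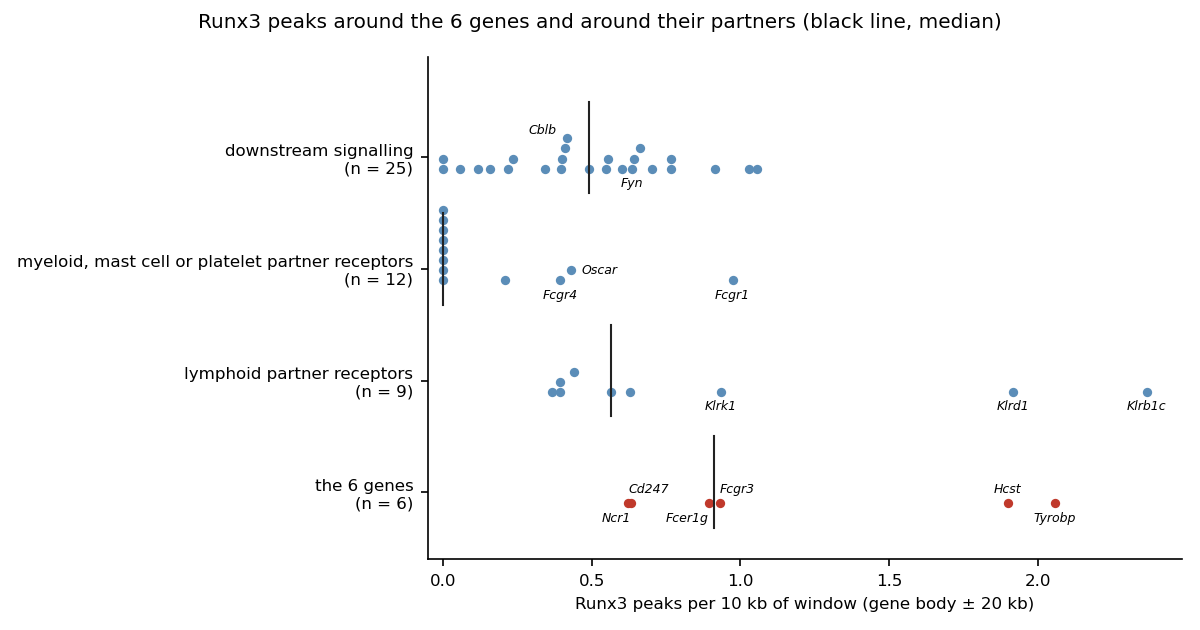
Runx3 peaks per 10 kb of window for each gene of the 6 (red) and of the 3 partner lists (blue), with the median of each list as a black line. Points at the same value are stacked, and height within a list has no meaning. Medians are 0.911 for the 6 genes, 0.564 for lymphoid partner receptors, 0 for receptors of myeloid cells, mast cells or platelets, and 0.492 for downstream signalling.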

How the data were processed

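Per the labels, the authors sequenced 40 bp reads. They aligned them to mm9 with ELAND, kept uniquely aligned reads, joined those of 2 biological repeats and called enriched regions against NIS with MACS, per the study's methods. The submitters' processing notes name CASAVA 1.7. The labels describe 1 sample per antibody. The deposited files are 2 lists of region coordinates (15524 Runx3, 49902 H3K4me1) without scores or counts, so no depth at a region and no replicate error can be computed from them.

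Coordinates were made 1-based. Chromosome lengths matched mm9 (NCBIM37), from which gene models (GENCODE) and sequence were taken. Windows were gene bodies with 20 kb on either side, and 1 shared bp counted as overlap. A start peak touched the 1 kb on either side of an annotated start. Motifs were searched on both strands with Python 3.11.15 and pysam 0.24.0. The interval functions gave 0 wrong answers in 3000 simulated cases. All 6 genes are named, other genes if they reach into a window beside a listed region, and from each partner list the 3 genes with most peaks and, where 5 or fewer, those with none; Syk, Zap70 and Vav1 were added as well-known partners after their values were seen. Itgax, Cd79a, Cd4, Cd8a, Ms4a1, Lyz2, Alb and Neurod1 are named as markers. The genes, lists and alternatives were chosen with earlier results of these data known. Some genes and sequences that these rules name are not reported here. No test was made.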

Additional observations from a re-analysis of the deposited data

How the results depend on the processing

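Counts over the 6 windows moved mainly with the width of the flank. With no flank the windows held 15 Runx3 peaks, 15 of them overlapping H3K4me1, and 17 H3K4me1 regions, with 61.9% of bases under H3K4me1. With 5 kb flanks there were 21 H3K4me1 regions and 57.3% of bases, and with 50 kb flanks 60 regions and 32.1%. Gene bodies from protein-coding transcripts alone gave 47.1%. All 6 genes kept a Runx3 peak in each of these. Of all protein-coding genes, 33.6% had one with no flank, 39.8% with 5 kb flanks and 62.6% with 50 kb flanks. Among Runx3 regions at least as wide as the median of the list, 16 peaks were left, 16 of them overlapping H3K4me1. Then 3 genes (Ncr1, Tyrobp and Cd247) had a peak at a start and 14 of the partner genes did, in place of 6 and 24. The share of all genes with such a wider peak at a start is not given here, so these counts have no background. Among H3K4me1 regions at least as wide as the median, 24 were left, covering 41.2% of bases. TGTGGT alone was found in 17 of the 29 peaks. The other 26 of 42 alternatives, 4 of them added after the data were seen, stayed within 1.5 times the value reported. Alternative counts are given above where they moved beyond 1.5 times, and alternative percents of bases where they changed at all. Peaks whose nearest protein-coding start is that of one of the 6 genes numbered 21, and each gene had at least 1. No paired analysis was possible because each antibody had a single list and no result comes from a test. Depth and signal strength could not be assessed, since coordinates carry neither.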
